A study of Mus musculus with 40 samples.

Results

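The genes described here encode 9 surface molecules through which B cells contact T cells or that mark B cell activation: Cd86, Cd80, Cd274, Icosl, Cd40, Cd83, Cd69, Cd44 and Slamf1. They were chosen by gene symbol, and they are 9 of the 19057 genes with a probe of 1 symbol on the array. The array holds 28 probes for them out of 34885 such probes, and 24 of the 28 were detected on at least 5 arrays. Each gene is represented by its probe with the highest mean over the 40 columns of the authors' deposited normalised table. All 9 genes passed the detection filter and were among the 9453 genes tested.

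Mouse splenic B cells lacking Bank1 and wild-type (WT) B cells were kept in culture with CpG for 0, 6, 24 and 48 h, and total RNA was hybridised to Illumina bead arrays. There were 5 arrays for Bank1-/- and 5 for WT cells at each time, 8 groups and 40 arrays in all, and the labels call the arrays of a group biological replicates. Bank1 encodes a B cell adaptor protein with ankyrin repeats, and CpG is a DNA ligand of Toll-like receptor 9. The Bank1-/- mice had been backcrossed to C57BL/6, and the labels name both Bank1+/+ littermates and purchased C57BL/6J mice as sources of control animals. The B cells were untouched cells left after magnetic depletion of other spleen cells, and cells cultured without CpG are not analysed here, so a change from 0 h combines CpG with time in culture. The labels do not tie an array to an animal, so p-values measure the spread between these arrays.

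A T cell that recognises antigen on a B cell needs a second signal, which CD86 and CD80 give through the receptor CD28 and which the inhibitory receptor CTLA4 intercepts. CD40 receives the returning T cell signal, ICOSL engages ICOS on follicular helper T cells, and CD274 (PD-L1) restrains T cells through PD-1. CD83, CD69, CD44 and SLAMF1 are used as markers of lymphocyte activation, and on B cells Toll-like receptor 9 ligands are known to raise CD86 and CD69 protein. Protein was not measured on these arrays.

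All levels below are log2 normalised intensities, so a difference of 1 is a doubling of signal, and levels are compared only within a probe. Because RNA was taken from a bulk culture and the arrays were brought to 1 distribution, fewer cells expressing a gene and less RNA per cell cannot be told apart. A probe was counted as detected on an array when it exceeded the 99th percentile of 1287 olfactory receptor probes there. Differences were tested with limma over all 9453 genes in 1 fit of the 40 arrays, and a gene was called at a Benjamini-Hochberg adjusted p under 0.05. The percentage of all tested genes called is given with each first count, as the background against which the count of the 9 genes is read.

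Mean array brightness ran from 145.7 to 539.9 raw units and averaged 420 ± 97.9 in Bank1-/- and 254 ± 118 in WT cells at 6 h (SD, n = 5 each). The array labelled Bank1-/- 0 h replicate 5 lay nearest to Bank1-/- 24 h replicate 1, with a root mean square difference of 0.159 over all tested genes, against 0.979 to its nearest own replicate. WT 6 h replicate 5 lay nearer to Bank1-/- 6 h replicate 1 (0.242) than to its nearest own replicate (0.467). Changes from 0 h in Bank1-/- cells are therefore given with and without the array labelled replicate 5, and the count of genotype differences at 6 h also without both of these arrays.

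The Bank1 probe read 10.08, 9.97, 9.85, 9.55 and 7.64 in Bank1-/- cells at 0 h and averaged 11.26 ± 0.20 in WT cells (SD, n = 5). It was lower in Bank1-/- cells at 0 h (difference -1.84, adjusted p = 1.28e-05; -1.39 without the array labelled replicate 5), 6 h (1.99-fold, adjusted p = 0.00487), 24 h (-2.42, adjusted p = 5.9e-08) and 48 h (-2.26, adjusted p = 3.49e-07, limma). The groups did not overlap at any of the 4 times, and where the probe lies relative to the deleted part is not given in the sources used here. Of 5 B cell markers tested, Ms4a1, Cd79b, Cd22 and Ptprc were detected on every array. In each genotype, 4 of the 5 were detected on at least 1 array at 24 h. Of 6 T cell markers on the array, Cd3d, Cd3e, Cd4 and Cd8a were detected on 0 arrays and Cd8b1 on all 40. In Bank1-/- cells at 6 h and WT cells at 0 h, 2 of the 6 were detected on at least 1 array. In every other group it was 1. Of 7 dendritic cell markers, Siglech, Xcr1 and Zbtb46 passed the detection filter, and Itgax and Flt3 were detected on 0 arrays.

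Cd86 encodes the main early ligand of CD28 on B cells, and its signal fell more than that of any other of the 9 genes in both genotypes. In Bank1-/- cells its levels were 12.51, 12.57, 12.70, 11.77 and 6.79 at 0 h, then 8.81, 9.07, 8.82, 9.02 and 8.65 at 6 h. They were 6.83, 6.50, 6.66, 6.67 and 6.76 at 24 h and 7.19, 7.28, 7.20, 7.11 and 7.52 at 48 h. Apart from the array labelled Bank1-/- 0 h replicate 5, which read like a 24 h array, every 0 h array stood above every later one. In WT cells the levels were 12.17, 12.15, 12.13, 12.16 and 12.35 at 0 h, then 8.70, 8.62, 8.68, 8.51 and 8.65 at 6 h. They were 7.00, 6.97, 6.92, 6.75 and 6.81 at 24 h and 7.41, 7.39, 7.49, 7.47 and 7.42 at 48 h. The 4 WT groups did not overlap.

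The Cd86 signal was 39.4-fold lower at 24 h than at 0 h in WT cells, a log2 difference of -5.30 (adjusted p = 1.92e-10, limma). In Bank1-/- cells the difference was -4.58 (adjusted p = 2.29e-08), and -5.70 without the array labelled replicate 5 (adjusted p = 1.51e-32), which is 52-fold. Most of the fall had taken place by 6 h, with a difference from 0 h of -2.39 in Bank1-/- cells (adjusted p = 0.000181; -3.51 without that array) and -3.56 in WT cells (adjusted p = 2.86e-07). With only the 2 Bank1-/- groups in the fit the 6 h step was not called (adjusted p = 0.0635). A further fall between 6 and 24 h was called in Bank1-/- cells (-2.19, adjusted p = 0.000689) and in WT cells (-1.74, adjusted p = 0.00532). The order of the levels was 0 h, 6 h, 48 h and 24 h in both genotypes. The lowest neighbours, 48 and 24 h, differed by 0.57 in Bank1-/- (adjusted p = 0.377) and 0.55 in WT cells (adjusted p = 0.407). Without the array labelled Bank1-/- 0 h replicate 5 both of these steps were called, with adjusted p = 2.44e-05 in Bank1-/- and 4.92e-05 in WT cells.

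The fall did not depend on the choice of probe. The 3 Cd86 probes are ILMN_2743244, used above, ILMN_1217041 and ILMN_1216386, and which part of the transcript each one reads is not given in the sources used here. ILMN_1217041 averaged 11.06, 8.78, 6.64 and 7.15 in Bank1-/- cells over the 4 times and 11.95, 8.36, 6.77 and 7.23 in WT cells. ILMN_1216386 averaged 9.36, 7.46, 6.26 and 6.36 in Bank1-/- cells and 10.13, 7.85, 6.38 and 6.33 in WT cells. All 3 probes were lower at 24 h than at 0 h. For ILMN_1217041 the difference was -4.42 in Bank1-/- (-5.52 without the array labelled replicate 5) and -5.18 in WT cells. At 24 h ILMN_1216386 was detected on 0 of 5 Bank1-/- arrays and 3 of 5 WT arrays. Its Bank1-/- difference is therefore a bound, at least 7.24-fold lower at 24 h than at 0 h (12.6-fold without that array), and its WT difference was -3.75. Before normalisation the first probe had raw intensities of 114.15 to 168.76 at 24 h and 167.63 to 7328 at 0 h in Bank1-/- cells, and of 157.69 to 180.49 at 24 h and 3518.1 to 5018.3 at 0 h in WT cells. The fall is thus present in the deposited signals.

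**Figure D1:**
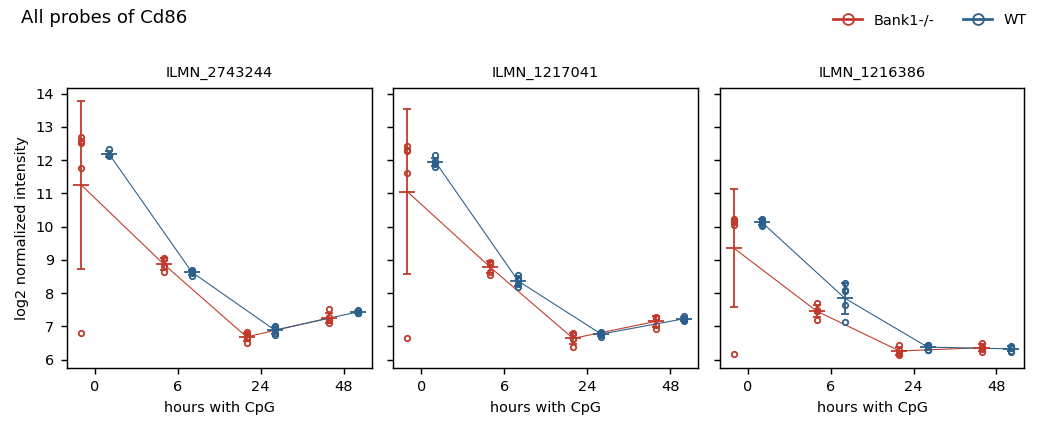
Log2 normalised intensity of the 3 Cd86 probes by time with CpG in hours, Bank1-/- to the left of WT at each time. Open circles are the 5 arrays and bars the mean ± SD; all 3 probes stand lower at 24 h than at 0 h in both genotypes, and the single low circle at 0 h is the array labelled Bank1-/- 0 h replicate 5.

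Cd86 was not called between genotypes at any time in the unweighted fits with or without the array labelled Bank1-/- 0 h replicate 5. The difference between Bank1-/- and WT cells was -0.92 at 0 h (SE 0.53, adjusted p = 0.397), and 0.20 without the array labelled replicate 5 (95% interval -0.04 to 0.43, adjusted p = 0.533). It was 0.24 at 6 h (adjusted p = 0.789), -0.21 at 24 h and -0.18 at 48 h. The SE of 0.53 applied at each of these times too, because all groups share the spread and the array labelled replicate 5 widens it. Without that array the SE at 6 h was 0.11 and the 95% interval 0.02 to 0.46 (adjusted p = 0.0916, limma). The interval at 24 h was then -0.43 to 0.02. The 0 to 24 h responses then differed by -0.40 (interval -0.73 to -0.08, adjusted p = 0.227). With array weights, which lower the influence of discordant arrays, the 0 h difference turned to 0.35 (adjusted p = 0.044).

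Cd80 encodes the second ligand of CD28 and CTLA4, and its normalised signal showed a brief peak at 6 h. It read 6.89, 7.11, 6.62, 7.06 and 6.89 at 6 h against 6.40, 6.52, 6.40, 6.50 and 6.07 at 0 h in Bank1-/- cells. In WT cells it read 6.90, 7.12, 6.89, 7.03 and 6.85 at 6 h against 6.14, 6.30, 6.06, 6.25 and 6.15 at 0 h. Every 6 h array stood above every 0 h array of its genotype. The probe was detected on 0 of 5 WT arrays at 0 h, and the WT mean at 6 h was above the 0 h mean (adjusted p = 1.32e-09, limma). It was 1.56-fold above the 0 h detection level, an excess that was not tested. This is not a firm bound, since the detection level was 6.98, 6.72, 6.75, 6.83 and 6.29 on the WT 6 h arrays. Raw WT intensities were 104.34, 134.61, 124.7, 128.04 and 191.9 at 6 h and 111.4 to 119.32 at 0 h. How much of the WT rise follows the detection level was not tested. The Bank1-/- rise was 0.54 (adjusted p = 3.21e-06), and 0.46 without the array labelled replicate 5. Raw Bank1-/- intensities were 139.59 to 226.48 at 6 h and 117.32 to 145.54 at 0 h. At 24 h the probe was detected on 0 of 5 arrays of each genotype. The 6 h mean was above the 24 h mean in Bank1-/- (adjusted p = 6.84e-09) and in WT cells (adjusted p = 6.71e-10). It was 1.33-fold above the 24 h detection level in Bank1-/- and 1.53-fold in WT cells, with the same limit. In Bank1-/- cells, detected on 3 of 5 arrays at 0 h, the 24 h level was called lower than at 0 h (-0.22, adjusted p = 0.0372). Without the array labelled replicate 5 it was -0.29 (adjusted p = 0.00349). The Bank1-/- mean at 0 h with all arrays did not exceed the 24 h detection level. The genotypes differed by -0.04 at 6 h (interval -0.23 to 0.14, adjusted p = 0.77).

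The promoter windows of 5 of the 9 genes are in the RefSeq table of mouse build GRCm38.p6 used here, those of Cd80, Cd44, Icosl, Cd274 and Slamf1. The table gives 1 start site per gene, which for Cd80 and Cd274 lies inside the gene's whole annotated span. The 250 bases before that site were read, and 3 are printed because their genes differ in time course: a 6 h peak (Cd80), a fall (Cd274) and a rise to 24 h (Cd44). Each is given 5′ to 3′ on the gene's strand, and capitals mark the only motif match, the AP-1 letters TGANTCA. The Cd80 window lies at chr16:38458683-38458932 on the plus strand, and its match starts 42 bases before the start site.
Cd80: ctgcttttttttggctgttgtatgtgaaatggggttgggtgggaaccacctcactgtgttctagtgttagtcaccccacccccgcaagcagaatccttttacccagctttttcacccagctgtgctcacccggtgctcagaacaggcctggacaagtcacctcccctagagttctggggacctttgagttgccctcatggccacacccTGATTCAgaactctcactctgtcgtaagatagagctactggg
The Cd274 window lies at chr19:29367188-29367437 on the plus strand.
Cd274: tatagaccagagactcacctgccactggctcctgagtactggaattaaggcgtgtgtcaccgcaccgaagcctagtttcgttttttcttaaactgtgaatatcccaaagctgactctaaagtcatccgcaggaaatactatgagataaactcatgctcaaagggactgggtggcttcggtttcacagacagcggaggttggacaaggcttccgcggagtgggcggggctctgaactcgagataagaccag
The Cd44 window lies at chr2:102901666-102901915 on the minus strand.
Cd44: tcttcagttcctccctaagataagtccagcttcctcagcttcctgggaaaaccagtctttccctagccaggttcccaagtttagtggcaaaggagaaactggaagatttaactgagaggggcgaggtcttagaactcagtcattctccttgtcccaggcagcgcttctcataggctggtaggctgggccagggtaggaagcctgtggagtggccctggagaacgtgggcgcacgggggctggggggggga
The NF-kB motif, TGANTCA and a pair of GAAA letters with 2 bases between them, as in interferon-response elements, were searched on both strands. Of 32851 windows of the same length, 2382 (7.25%) held the NF-kB motif, 2217 (6.75%) TGANTCA and 978 (2.98%) the GAAA pair. Among the 5 windows the other match was an NF-kB motif in Icosl, starting 111 bases before its start site. A match describes the letters of the window and was not tested as a binding site.

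Cd274 encodes PD-L1, the ligand of the inhibitory receptor PD-1 and a relative of CD80 and CD86. Its levels in Bank1-/- cells were 11.57, 11.63, 11.83, 11.41 and 9.85 at 0 h, 9.88, 10.23, 10.43, 10.32 and 10.17 at 6 h, and 9.99 on average at 48 h. In WT cells they were 11.78, 11.89, 11.35, 11.66 and 11.92 at 0 h, 10.84, 10.76, 10.35, 10.66 and 10.06 at 6 h, and 9.63 on average at 48 h. The 0 h arrays were the high ones, again except the array labelled Bank1-/- 0 h replicate 5. Against 0 h the signal was lower at 6 h in Bank1-/- (-1.05, adjusted p = 4.86e-05; -1.41 without that array) and in WT cells (-1.19, adjusted p = 6.61e-06). At 48 h the difference was -1.27 in Bank1-/- (adjusted p = 4.8e-06; -1.62 without that array) and -2.09 in WT cells (adjusted p = 1.61e-10). The PD-L1 transcript thus moved in the direction of Cd86, over a smaller range.

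Icosl encodes the ligand of ICOS, and it was lower at 24 and 48 h than at 0 h in both genotypes. Its Bank1-/- levels were 6.76, 7.64, 6.80, 6.94 and 7.57 at 24 h against 7.70, 7.58, 7.80, 7.67 and 6.92 at 0 h. Its WT levels were 6.79, 6.83, 7.06, 6.89 and 6.78 at 24 h against 8.01, 7.88, 7.76, 7.76 and 7.82 at 0 h. The WT groups did not overlap, and the Bank1-/- groups did. The fall at 24 h was -0.40 in Bank1-/- (adjusted p = 0.0281, and 0.171 with those groups fitted alone; -0.55 without the array labelled replicate 5) and -0.98 in WT cells (adjusted p = 1.15e-06), and at 48 h it was -0.74 in Bank1-/- (adjusted p = 0.000149; -0.89 without that array) and -1.08 in WT cells (adjusted p = 3.25e-07). Without the array labelled replicate 5 the signal was already lower at 6 h in Bank1-/- cells (-0.37, adjusted p = 0.0238), where it was -0.22 with it (adjusted p = 0.23). The second Icosl probe, ILMN_1235456, did not show the WT step between 6 and 24 h (0.04, against -0.85 for the first probe).

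Cd40 encodes the receptor of CD40 ligand from T cells, and it was higher at 6 h and lower at 24 h than at 0 h. At 6 h it read 11.49, 11.60, 11.45, 11.68 and 11.16 in Bank1-/- cells against 10.95, 11.21, 11.13, 10.70 and 10.08 at 0 h. In WT cells it read 11.18, 11.36, 11.22, 11.17 and 11.32 at 6 h against 10.69, 10.85, 10.94, 10.99 and 10.95 at 0 h. The WT groups did not overlap, and of the Bank1-/- 6 h arrays 1 stood within the 0 h range. The rise was 0.66 in Bank1-/- (adjusted p = 2.08e-05; 0.48 without the array labelled replicate 5) and 0.37 in WT cells (adjusted p = 0.0105). At 24 h the difference from 0 h was -0.81 in Bank1-/- (adjusted p = 1.25e-06; -0.99 without that array) and -0.65 in WT cells (adjusted p = 2.7e-05), and by 48 h it was -0.82 in Bank1-/- (-1.01 without that array) and -0.96 in WT cells. The array has 5 Cd40 probes, and ILMN_2502136 gave a larger WT rise at 6 h (1.66, adjusted p = 3.69e-10), while ILMN_2488266 moved by 0.06 (adjusted p = 0.701).

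Cd83 encodes a surface protein known to protect CD86 and MHC class II from the ubiquitin ligase MARCHF1, and its signal dipped at 24 h. It read 11.71, 11.35, 11.72, 11.57 and 11.27 at 24 h against 13.03, 12.36, 12.57, 12.42 and 12.47 at 6 h in Bank1-/- cells. In WT cells it read 11.58, 11.62, 11.82, 11.56 and 11.69 at 24 h against 12.21, 12.14, 12.18, 12.35 and 13.26 at 6 h. The 24 h arrays were the low ones in both genotypes and overlapped neither the 6 h nor the 48 h arrays. The difference was -1.05 in Bank1-/- (adjusted p = 1.88e-06) and -0.78 in WT cells (adjusted p = 0.00015). By 48 h the level had risen again by 0.88 in Bank1-/- (adjusted p = 3.1e-05) and 0.88 in WT cells (adjusted p = 2.66e-05).

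Cd69 encodes a C-type lectin that appears early in activation and retains lymphocytes by binding the receptor S1PR1. Its signal fell at 6 h and then climbed without regaining the 0 h level. In Bank1-/- cells it read 12.91, 12.87, 12.97, 12.83 and 11.06 at 0 h, 10.23, 10.30, 10.46, 10.20 and 10.52 at 6 h, 10.81 on average at 24 h and 11.77 on average at 48 h. In WT cells it read 13.12, 13.01, 13.00, 12.91 and 13.11 at 0 h, 9.39, 9.85, 9.53, 9.71 and 10.38 at 6 h, 10.97 on average at 24 h and 12.01 on average at 48 h. The 0 h and 6 h groups did not overlap in either genotype. The fall was -2.18 in Bank1-/- (adjusted p = 2.89e-11; -2.55 without the array labelled replicate 5) and -3.26 in WT cells (adjusted p = 5.46e-16). The climb between 6 and 24 h was 0.46 in Bank1-/- (adjusted p = 0.0644, and 0.00148 without that array) and 1.19 in WT cells (adjusted p = 8.88e-06), and between 24 and 48 h it was 0.97 in Bank1-/- (adjusted p = 0.000184) and 1.04 in WT cells (adjusted p = 6.52e-05). The second Cd69 probe, ILMN_2586179, changed at 6 h by -0.06 in Bank1-/- (adjusted p = 0.615) and -0.30 in WT cells (adjusted p = 0.00366).

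Cd44 encodes the receptor for hyaluronan that marks activated and memory lymphocytes, and it was the one gene of the 9 whose signal was higher than at 0 h at each later WT time by more than 1 log2 unit. In Bank1-/- cells it read 10.09, 10.34, 10.38, 10.74 and 12.67 at 0 h and 11.22, 11.26, 10.84, 11.28 and 10.73 at 6 h. It read 12.55, 12.92, 12.24, 12.86 and 12.68 at 24 h and 11.86, 12.02, 11.74, 11.81 and 12.09 at 48 h. The array labelled Bank1-/- 0 h replicate 5 lay within the 24 h range, and the other 4 lay below every 24 h and 48 h array. In WT cells Cd44 read 9.78, 9.61, 9.37, 9.70 and 9.92 at 0 h and 11.88, 11.82, 11.41, 11.84 and 11.51 at 6 h. It read 12.69, 12.48, 12.69, 12.58 and 12.69 at 24 h and 11.37, 11.67, 11.81, 11.76 and 11.77 at 48 h. The 24 h arrays were the high ones in both genotypes. Against 0 h the 24 h level was higher by 1.81 in Bank1-/- (adjusted p = 1.95e-07; 2.26 without the array labelled replicate 5) and by 2.95 in WT cells (adjusted p = 1.46e-11). At 48 h its difference from the 24 h level was -0.75 in Bank1-/- (adjusted p = 0.011) and -0.95 in WT cells (adjusted p = 0.00144).

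Slamf1 encodes CD150, a receptor that binds its own kind on neighbouring lymphocytes. Its probe was high at 48 h in both genotypes and moved in opposite directions at 6 h. In Bank1-/- cells it read 6.63, 7.10, 6.69, 6.91 and 6.80 at 0 h, 7.46, 7.35, 7.12, 7.03 and 7.65 at 6 h, and 7.56, 7.63, 7.55, 7.46 and 7.51 at 48 h. In WT cells it read 7.28, 7.35, 7.36, 7.36 and 7.26 at 0 h, 6.36, 6.83, 6.97, 6.50 and 7.30 at 6 h, and 7.87, 7.74, 7.74, 7.58 and 7.57 at 48 h. The 48 h level stood above the 24 h level by 1.15 in Bank1-/- (adjusted p = 2.79e-08) and 1.11 in WT cells (adjusted p = 5.77e-08), and the probe was detected on 3 of 5 Bank1-/- arrays at 24 h. The change at 6 h was 0.50 in Bank1-/- (adjusted p = 0.00371; 0.49 without the array labelled replicate 5) and -0.53 in WT cells (adjusted p = 0.00185), the WT change being -0.27 with array brightness in the model (adjusted p = 0.0521).

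**Figure D2:**
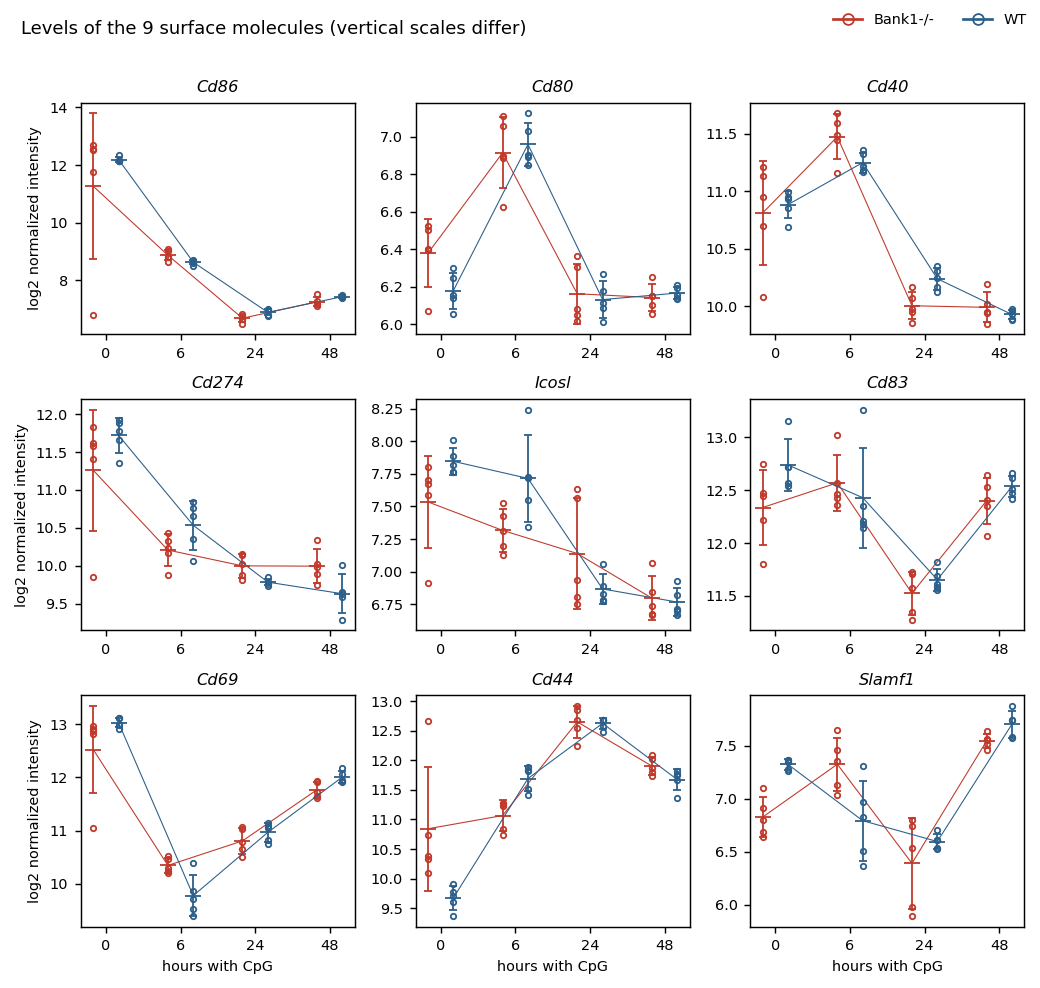
Log2 normalised intensity of the 9 genes by time with CpG in hours, Bank1-/- to the left of WT at each time. Open circles are the 5 arrays of a group and bars the mean ± SD; levels are comparable within a gene, not between genes, and Cd86, Cd274 and Icosl fall while Cd44 rises.

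Over the set, the later time was the lower one more often than not. At 6 h against 0 h, 3 of the 9 genes were higher and 3 lower in Bank1-/- cells, beside 31.2% of all genes higher and 29.5% lower. In WT cells 3 were higher and 4 lower at 6 h, beside 33% and 33.6% of all genes. At 24 h 1 was higher and 8 were lower in Bank1-/- cells (29.3% and 30.5% of all genes), and 1 was higher and 7 were lower in WT cells (34.6% and 30.1%). The median difference at 24 h was -0.81 over the 9 genes and 0.00 over all genes in Bank1-/- cells, and -0.98 over the 9 and 0.04 over all genes in WT cells. At 48 h 2 were higher and 6 lower in Bank1-/- cells (25.3% and 25.7% of all genes) and 2 higher and 5 lower in WT cells (29% and 26%). Between 6 and 24 h 1 rose and 5 fell in Bank1-/- cells (23.9% and 27.9% of all genes) and 2 rose and 6 fell in WT cells (31.3% and 26%). Between 24 and 48 h 3 rose and 1 fell in Bank1-/- cells (28.3% and 25.6% of all genes) and 3 rose and 2 fell in WT cells (26.6% and 27.1%). Since most genes were called in each of these time comparisons, the number of the 9 that was called does not set them apart. Without the array labelled Bank1-/- 0 h replicate 5, 4 were higher and 4 lower at 6 h against 0 h in Bank1-/- cells, with 65.6% of all genes called.

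**Figure D3:**
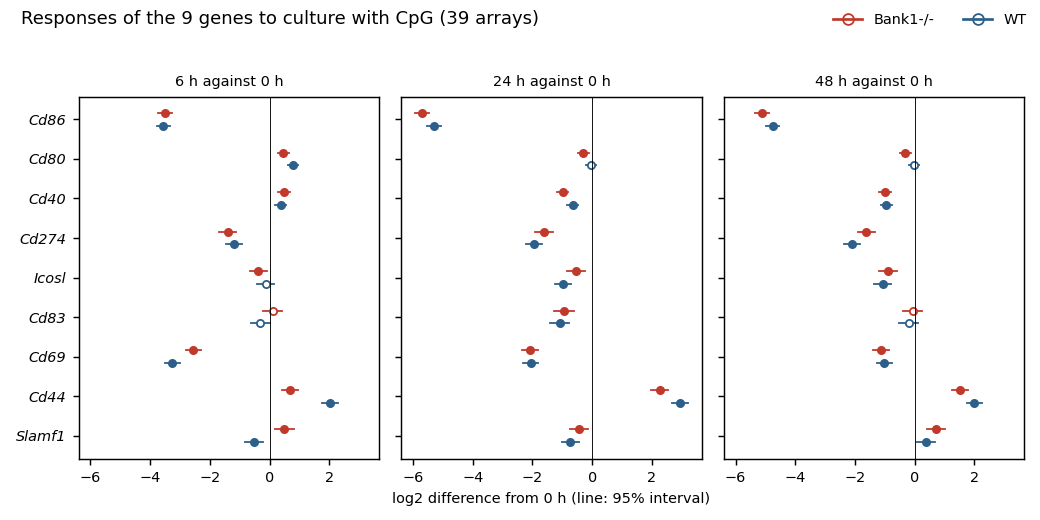
Log2 difference from 0 h at 6, 24 and 48 h for the 9 genes, Bank1-/- (red) above WT (blue), fitted without the array labelled Bank1-/- 0 h replicate 5, with lines for 95% intervals and filled symbols for an adjusted p under 0.05. Cd86 has the most negative differences, -5.70 in Bank1-/- and -5.30 in WT cells at 24 h, and Cd44 the most positive.

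Genotype differences in the set were called at 0 h and 6 h, and their number at 6 h depended on the arrays that stood apart. At 0 h 1 of the 9 genes was higher in Bank1-/- cells and 0 were lower, with 1.52% of all genes called. At 6 h 2 were higher and 0 lower, with 22.1% called, so this count was near the share of all genes and does not set the 9 apart. Without the array labelled Bank1-/- 0 h replicate 5, 2 were higher and 2 lower at 6 h (30.7% of all genes called), and without both arrays 4 were higher and 3 lower (41.8% called). WT 6 h replicate 5 had a mean brightness of 455.1, within the range of the Bank1-/- 6 h arrays (290.3 to 511.2). The other WT 6 h arrays lay at 145.7 to 231.9. Without both arrays, genotype and brightness therefore cannot be told apart at 6 h. With brightness in the model of all arrays the 6 h count was 0. At 24 h 0 of 9 were called with limma (0.106% of all genes) and at 48 h 0 of 9 (0.169%), and 0 of the 9 had an unadjusted p under 0.05 at either time. The response from 0 h to 6 h differed by genotype for 3 genes (9.39% of all genes called), 2 with the Bank1-/- response above the WT one and 1 below it. For the responses to 24 h and 48 h it was 0 (0.465% and 0.0952%), with 3 and 2 genes at an unadjusted p under 0.05.

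Cd44 was the gene called at 0 h, higher in Bank1-/- cells by 1.17 (SE 0.25, adjusted p = 0.0094). The array labelled Bank1-/- 0 h replicate 5 carried part of that difference. Without it Bank1-/- cells averaged 10.39 ± 0.27 (SD, n = 4) and WT cells 9.68, a difference of 0.71 (adjusted p = 0.00271), and the groups did not overlap with or without that array. Over all genes, 2.09% had every Bank1-/- array above every WT array at 0 h. At 6 h all 5 Bank1-/- arrays were below all 5 WT arrays, as for 2.56% of all genes, a difference of -0.63 that missed the threshold (adjusted p = 0.0661) and passed it without that array (adjusted p = 0.000544). The 0 to 6 h response was smaller in Bank1-/- cells, 0.22 (adjusted p = 0.453) against 2.02 in WT cells. Without the array labelled replicate 5 the Bank1-/- rise was 0.68 and was called (adjusted p = 4.43e-05). The responses gave a difference of -1.79 (SE 0.35, adjusted p = 0.00194), or -1.34 without the array labelled replicate 5 (adjusted p = 8.96e-06). Fitted with the groups concerned alone, neither the 0 h difference (adjusted p = 0.627) nor the difference of responses (adjusted p = 0.0713) was called.

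Some other Cd44 probes differed from the first at 6 h. At 0 h the other 5 probes detected were higher in Bank1-/- cells, as the first was, by 0.08 to 0.62, with 0 called. ILMN_2474229 averaged 9.17, 10.33, 10.42 and 10.54 over the 4 times in Bank1-/- cells and 8.78, 9.44, 11.05 and 10.75 in WT cells, and at 6 h it was higher in Bank1-/- cells (0.89, adjusted p = 0.0484). Its difference of the 0 to 6 h responses was 0.50 (adjusted p = 0.523). ILMN_3114585 averaged 8.23, 10.42, 10.36 and 10.55 in Bank1-/- cells and 7.61, 9.95, 10.60 and 10.70 in WT cells, with a difference of responses of -0.15 (adjusted p = 0.846). All 3 of these probes rose to 24 h in both genotypes, and the 2 just named did not fall between 24 and 48 h in Bank1-/- cells (0.13 and 0.19). CD44 transcripts are known to be spliced in many forms, and which forms each of the 9 Cd44 probes reads is not given in the sources used here.

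**Figure D4:**
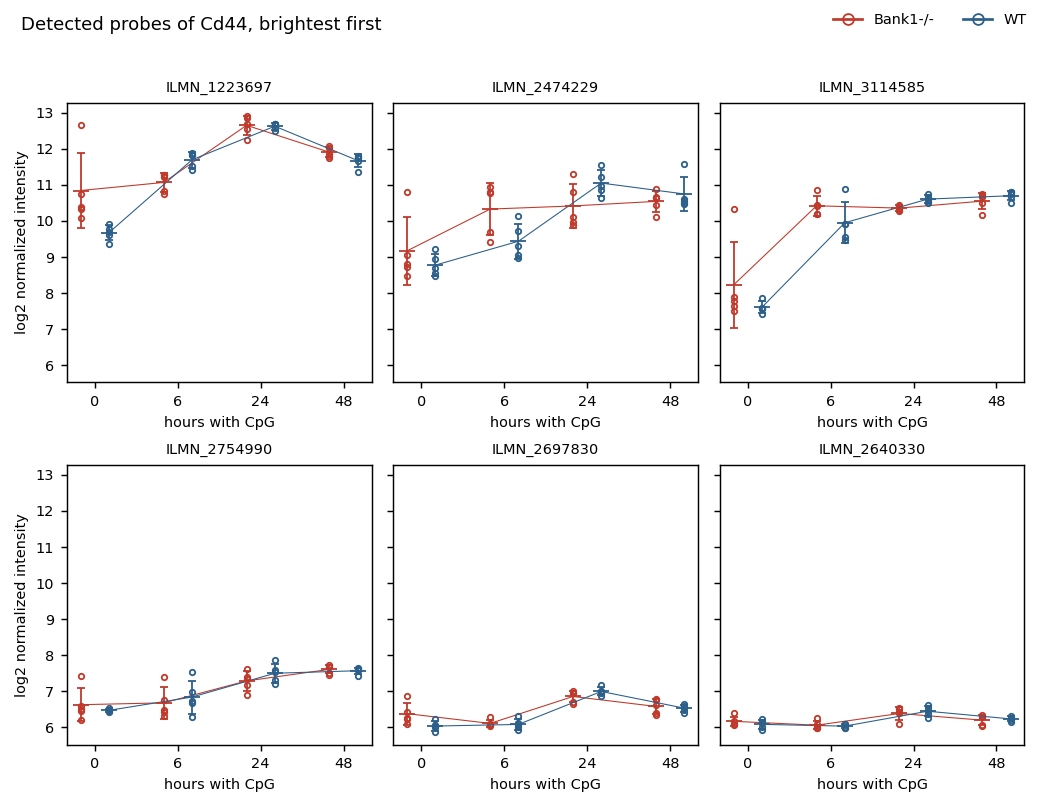
Log2 normalised intensity of the Cd44 probes detected by the filter, by time with CpG in hours, Bank1-/- to the left of WT at each time, with open circles for arrays and bars for the mean ± SD. At 6 h ILMN_1223697 is lower in Bank1-/- than in WT cells, whereas ILMN_2474229 is higher.

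Slamf1 was higher in Bank1-/- cells at 6 h by 0.53 (SE 0.15, adjusted p = 0.00945), and at 0 h all 5 Bank1-/- arrays were below all 5 WT arrays, as for 1.39% of all genes, a difference of -0.50 that missed the threshold (adjusted p = 0.0759). Its 0 to 6 h response differed by 1.03 (SE 0.21, adjusted p = 0.00264) and by 1.02 without the array labelled Bank1-/- 0 h replicate 5. With array brightness in the model the 6 h difference was 0.14 (adjusted p = 0.696) and the difference of responses 0.73 (adjusted p = 0.0169). The other Slamf1 probes gave 6 h differences of 0.10 (adjusted p = 0.449) and 0.15 (adjusted p = 0.31), and the probe used was detected on 3 of 5 WT arrays at 6 h. Leaving out WT replicate 1 brought Slamf1 at 6 h to 0.43 (adjusted p = 0.0529).

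Cd69 was higher in Bank1-/- cells at 6 h by 0.57 (SE 0.21, adjusted p = 0.0474, limma), with 1 WT array, replicate 5, inside the Bank1-/- range. That call was lost in 29 of 40 fits that each left out 1 array. Its fall from 0 h to 6 h was smaller in Bank1-/- cells by 1.07 (adjusted p = 0.0216), and by 0.71 without the array labelled replicate 5 (adjusted p = 0.0112). Without WT 6 h replicate 1 its adjusted p was 0.0548. With array brightness in the model these values were 0.26 (adjusted p = 0.689) and 0.84 (adjusted p = 0.139), so neither was called. The part that brightness has in the 6 h differences was not tested further, and brightness was higher in Bank1-/- than in WT cells at 6 h, as given above. With both arrays that stood apart left out, the 7 genes called at 6 h, in a fit that called 41.8% of all genes, were Cd40, Cd69, Cd83 and Slamf1 (higher in Bank1-/- cells) and Cd44, Icosl and Cd274 (lower).

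Markers of other cells also moved at 6 h, when 22.1% of all genes were called between genotypes. The 3 erythroid markers tested, Hba-a1, Hbb-bs and Slc4a1, were all higher in Bank1-/- cells, and the mean level of the 4 erythroid genes on the array was 8.36 to 9.07 in Bank1-/- arrays and 7.39 to 7.75 in WT arrays. Of 9 myeloid markers on the array 4 were tested and 2 were higher in Bank1-/- cells, Adgre1 (0.87, adjusted p = 8.39e-06) and S100a8 (adjusted p = 0.0398, not above background on the 5 WT arrays), and Cd14, Itgam and Mpo were detected on 0 arrays. For the 0 to 6 h response 3 of the 4 were higher in Bank1-/- cells, beside 9.39% of all genes called. At 0 h 2 of these 4 myeloid markers were lower in Bank1-/- cells, with 1.52% of all genes called. Without the array labelled Bank1-/- 0 h replicate 5 it was 1 of the 4, with 1.21% called. The T cell marker Cd8b1 was lower in Bank1-/- cells at 6 h (-0.27, adjusted p = 0.0431), and 0 of the 3 dendritic cell markers tested were called. The mean level of the 5 B cell markers ranged over 8.26 to 8.51 in Bank1-/- and 8.37 to 8.55 in WT arrays at 6 h. Of those 5 B cell markers 4 were lower at 6 h than at 0 h in Bank1-/- cells, with or without the array labelled replicate 5. In WT cells 5 were lower, and of all genes 29.5% were lower in Bank1-/- and 33.6% in WT cells. At 0 h their mean level ranged over 9.04 to 10.38 in Bank1-/- arrays, that array included, and 10.36 to 10.49 in WT arrays. What part other cells have in the differences of the 9 genes was not tested.

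**Figure D5:**
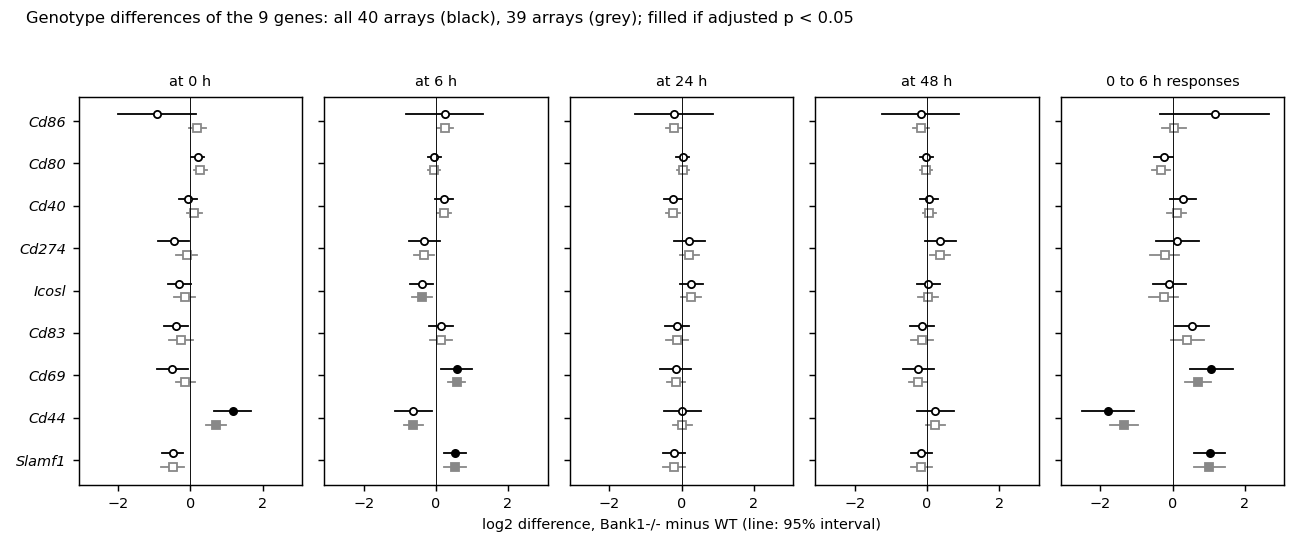
Log2 difference between Bank1-/- and WT cells for the 9 genes at each time and for the difference of the 0 to 6 h responses, with lines for 95% intervals. Black circles use all 40 arrays and grey squares 39 arrays, without the array labelled Bank1-/- 0 h replicate 5; filled symbols have an adjusted p under 0.05, and none is filled at 24 or 48 h.

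Other ligands and receptors of T cell help were examined as context, 27 genes of which 15 were tested. At 24 h against 0 h 1 was higher and 7 lower in Bank1-/- cells, beside 29.3% and 30.5% of all genes. In WT cells 2 were higher and 8 lower, beside 34.6% and 30.1%. The median difference at 24 h was -0.16 in Bank1-/- (-0.28 without the array labelled replicate 5) and -0.34 in WT cells. At 48 h against 0 h 7 were higher and 2 lower in Bank1-/- cells (7 and 3 without that array), beside 25.3% and 25.7% of all genes. In WT cells 5 were higher and 3 lower, beside 29% and 26%. Between 24 and 48 h 10 rose and 0 fell in Bank1-/- cells (28.3% and 25.6% of all genes). In WT cells 9 rose and 0 fell (26.6% and 27.1%). Pdcd1lg2, the second ligand of PD-1, was higher at 6 h by 1.22 in Bank1-/- (adjusted p = 2.63e-11; 1.16 without that array) and 0.91 in WT cells (adjusted p = 1.33e-08), whereas Cd274 fell in both genotypes. Ctla4, the inhibitory receptor for CD80 and CD86, was higher at 48 h by 3.46 in Bank1-/- (3.53 without that array) and 3.65 in WT cells (adjusted p = 1.07e-25). Btla, an inhibitory receptor of B and T cells, was lower at 24 h in WT cells (-1.86). Between genotypes at 6 h, Cd48 was higher (0.57, adjusted p = 0.0478) and its relative Ly9 lower (-0.50, adjusted p = 0.0394) in Bank1-/- cells.

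Of 23 other surface markers of activation and adhesion, 19 were tested. At 6 h against 0 h 8 were higher and 5 lower in Bank1-/- cells (7 and 7 without the array labelled replicate 5), beside 31.2% and 29.5% of all genes. In WT cells 6 were higher and 7 lower, beside 33% and 33.6%. Il2ra, the alpha chain of the interleukin 2 receptor, was higher at 6 h by 2.23 in Bank1-/- (2.28 without that array) and 2.04 in WT cells (adjusted p = 4.02e-18), and the transferrin receptor Tfrc by 1.01 in WT cells. Cd55, which shields cells from complement, was lower in WT cells at 6 h (-4.84). At 24 h in WT cells the inhibitory receptor Cd72 was lower (-2.84) and Fcer2a, which encodes CD23, was at least 22.7-fold lower. These rises in Il2ra and Tfrc were seen at the time when Cd86 and Cd69 fell.

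Genes that signal from or turn over these molecules numbered 20, of which 15 were tested. At 6 h against 0 h 2 were higher and 6 lower in Bank1-/- cells (2 and 7 without the array labelled replicate 5), beside 31.2% and 29.5% of all genes. In WT cells 3 were higher and 9 lower, beside 33% and 33.6%. The median was -0.28 in Bank1-/- (-0.30 without that array) and -0.85 in WT cells. Marchf1, the ubiquitin ligase that removes CD86 and MHC class II from the surface, was at least 4.72-fold lower at 6 h in Bank1-/- (adjusted p = 2.4e-21; 5.04-fold without that array) and at least 5.44-fold lower in WT cells (adjusted p = 9.42e-24). At 0 h it was lower in Bank1-/- than in WT cells (-0.43, adjusted p = 0.0281), a call lost without that array (-0.34, adjusted p = 0.0993). The CD40 adaptor Traf1 was higher at 6 h by 1.82 in Bank1-/- (1.59 without that array) and 2.23 in WT cells, and Traf5 was lower, with a difference of -2.14 in Bank1-/- (-2.50 without that array) and -2.75 in WT cells. Between genotypes at 6 h, 2 of the 15 were higher and 3 lower in Bank1-/- cells, beside 22.1% of all genes called. Without that array 5 were higher and 3 lower, beside 30.7%. Among those called were Msn (-0.87) and Traf1 (-0.59).

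The genes whose levels followed each of the 9 most closely were ranked by Pearson correlation over the 40 arrays, which share 8 groups, so that the values describe shared time patterns. Cd86 was followed by Dusp5 (0.985), Brwd1 (0.982) and H2ac19 (0.978), and Cd69 by Setbp1 (0.982), Plekha2 (0.981) and Herpud1 (0.978). Cd40 was followed by Lta (0.968), Cdk5r1 (0.954) and Nfkb2 (0.952), of which Lta and Nfkb2 belong to the tumour necrosis factor and NF-kB families. Cd274 was followed by Ets2 (0.965), Kmt5b (0.952) and Cirbp (0.949), and Cd44 by Dolpp1 (0.958), Agfg2 (0.955) and Gtf3c5 (0.95). Cd80 was followed by Tcea2 (0.945), Kctd14 (0.941) and Blcap (0.934), and Cd83 by Marcksl1 (0.936), Zfp317 (0.913) and Cxcr5 (0.911). Icosl was followed by Angel2 (0.929), Tfip11 (0.913) and Ddit3 (0.907), and Slamf1 by Zcchc7 (0.88), Sdf4 (0.876) and Rplp2 (0.871). Among the 9 themselves, Cd86 went with Cd274 (0.936) and against Cd44 (-0.924), and Cd80 went with Cd40 (0.821).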

How the data were processed

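Splenic B cell RNA was hybridised to Illumina bead arrays. The authors deposited intensities without normalisation, linear signals per probe, per the file headers, and a log2 table, which the authors normalised. The deposited log2 table differs by at most 0.128 from quantile-normalised log2 raw values. Software versions, probe sequences and genome build of the authors' processing are not given in the sources used here. Of 45281 probes, 34885 have 1 symbol in the platform annotation, 18 several and 10378 none. The table has 8 columns that match no sample and were not used.

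Intensities were background-corrected with normexp (offset 50), quantile-normalised and put on the log2 scale (limma 3.58.1, R 4.3.3). A gene was tested if its probe was detected on 5 or more of 40 arrays. The limma fit had 1 coefficient per group and 32 residual degrees of freedom, and 17 two-sided comparisons were made, each with Benjamini-Hochberg adjustment over 9453 genes. A probe below background throughout a group gives only a bound, written "at least" except for Cd80. It compares the brighter group's mean with the lowest level detected on each array of the other group. It does not allow for the detection level of the brighter group's own arrays. A p-value printed beside a bound belongs to the limma comparison of the group means. The number of arrays limits the precision. The fit was tested on simulated data.

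Named are all 9 genes, all Cd86 probes, detected probes of the others, Bank1, up to 4 genes of smallest p per context list, 3 genes most alike, and markers that moved. The genes and lists were chosen with earlier results of these data known. Alternatives were the deposited table, background correction, filter, array brightness, array weights, groups fitted alone, replicate blocks, other probes and leaving out arrays.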

Additional observations from a re-analysis of the deposited data

Results flagged for a closer look

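In 8 of 72 groups of 5 arrays (9 genes by 8 groups) 1 array stood apart from the other 4, with a gap that was large against the range of its group. A small gap can meet this rule where the other 4 lie close together. Chance alone gives about 1 in 20 independent groups, but these groups share arrays, so the 8 are not compared with that rate. The array labelled Bank1-/- 0 h replicate 5 stood apart for 6 genes. It read 6.79 for Cd86 (others 11.77 to 12.70), 6.07 for Cd80 (6.40 to 6.52), 12.67 for Cd44 (10.09 to 10.74) and 11.06 for Cd69 (12.83 to 12.97). For Icosl it read 6.92 (7.58 to 7.80) and for Cd274 9.85 (11.41 to 11.83). WT 6 h replicate 5 read 13.26 for Cd83 (12.14 to 12.35), and WT 0 h replicate 5 read 12.35 for Cd86 (12.13 to 12.17).

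The response from 0 h to 6 h differed between Bank1-/- and WT cells for Cd44 (-1.79), Cd69 (1.07) and Slamf1 (1.03), tested as a difference of responses with limma. For this difference 9.39% of all genes were called. As given above, the Cd69 call was lost with array brightness in the model and the Cd44 call with the groups fitted alone. The other Cd44 probes whose difference of responses is given above were not called.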

How the results depend on the processing

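The time patterns of the 9 genes kept their direction under most settings, while the genotype counts at 6 h did not hold steady. At 0 h, 1 gene was called between Bank1-/- and WT cells, against 3 with array brightness in the model, 4 with array weights, 0 with the groups fitted alone, 2 with brightness and without the array labelled Bank1-/- 0 h replicate 5, and 1 to 2 when each array was left out in turn. At 6 h, 2 were called, against 1 with the deposited log2 table, without background correction, without the filter, with the groups alone or with replicate number as a fixed replicate block. At 6 h the count was 0 with brightness, with or without the array labelled Bank1-/- 0 h replicate 5, 4 with array weights, and 7 without both arrays that stood apart. In that last fit every WT 6 h array was dimmer than every Bank1-/- 6 h array. Leaving out each array gave 0 (WT 6 h replicate 1) to 4 (Bank1-/- 0 h replicate 5), and 30 of 40 such fits moved the count. For Bank1-/- cells at 48 h against 0 h the count was 8, against 5 with the groups alone and 7 to 8 when each array was left out. For the difference of 0 to 6 h responses it was 3, against 1 with the groups alone and 5 without both arrays, and for that of 0 to 24 h it was 0, against 3 with array weights and 1 with brightness and without the array labelled Bank1-/- 0 h replicate 5. With array weights the Cd86 difference turned to 0.35 at 0 h and -0.53 for the 0 to 24 h responses. Other probes gave the opposite sign where they or the first probe passed the threshold. At 6 h between genotypes Cd40 gave -0.39 and Cd44 0.89, and the Cd44 difference of responses was 0.50. In Bank1-/- cells Cd44 gave -0.27 at 6 h against 0 h, -0.064 at 24 h against 6 h and 0.13, 0.19 and 0.32 at 48 h against 24 h, and Cd69 gave -0.020 in that step. In WT cells Cd44 gave -0.049 at 6 h, Cd40 0.031 at 24 h against 0 h, Icosl 0.038 at 24 h against 6 h, and Cd44 0.094 and 0.070 at 48 h against 24 h. The causes were not tested. Replicate numbers were not used as pairs in the main fit. In 0 of 28 pairs of groups did every same-numbered pair correlate above 0.1, but 1 misplaced array is enough to fail that rule. Mean same-numbered correlations ran from -0.226 (Bank1-/- 6 h with WT 48 h) to 0.219 (Bank1-/- 6 h with 24 h). Whether the numbers mark pairs is therefore not settled. The 2 settings that leave out both arrays, or brightness with 1 array, were added after seeing the data. The design has 5 arrays a group, no culture without CpG and no protein, and probes near background, such as those of Cd80, Icosl and Slamf1, give compressed differences.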
